A study of Mus musculus with 30 samples.

Results

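The comparison described here is the difference between a hind-limb and a forelimb muscle of the same mouse in their response to a high spinal cord injury. It is the change from sham to T3 transection in the gastrocnemius minus the same change in the triceps brachii. The members are 16 of the 30 libraries of the series: those of the 4 sham and 4 T3 mice with both muscles sequenced under the number 60 in the library descriptions. All 11249 genes of the deposited table were tested. A negative value means that a gene was lower, or rose less, in the gastrocnemius than in the triceps after injury, relative to sham.

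Motor neurons of the triceps lie in the cervical spinal cord, above a lesion at the third thoracic segment, and those of the gastrocnemius lie in the lumbar cord, below it. Both muscles meet the same blood, hormones and feeding state after the injury, whereas the gastrocnemius also loses descending drive. In skeletal muscle, contraction, fasting and glucocorticoids act on the coactivator PGC-1α and its partner receptors, which raise genes of mitochondrial fuel use. Unloading and loss of nerve activity are known to lower the same genes and to raise ubiquitin ligases and acetylcholine receptor subunits.

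All mice were male and were sampled 3 days after surgery. The sham group had sham surgery, and the T3 group had the cord transected at the third thoracic level. The labels give no strain and no age. Polyadenylated RNA from each muscle was made into strand-specific libraries. Values are log2 CPM (CPM, read counts scaled to the depth of the library). The mice named 1, 2, 4 and 5 (sham) and 6, 7, 8 and 10 (T3) carry the numbers of the descriptions. That both libraries with one number came from one animal is an inference from those names.

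The 16 libraries held 13293557 to 23398801 reads in the tested genes. Libraries differed beyond their groups: the triceps libraries of sham mice 4 and 5 and the gastrocnemius library of sham mouse 5 had median log2 values of 3.29, 3.55 and 3.66, against 3.71 to 4.26 in the other 13. The muscle marker Ckm was high in every library (9108 to 20650 CPM). Other fibre genes varied more: Ttn was at 843 to 9048 CPM, Myh4 at 5976 to 58210 CPM and Mylpf at 5085 to 31260 CPM. In the triceps of sham mice 4 and 5, Ttn was at 843 and 1254 CPM and Myh4 at 5976 and 6784 CPM. Mylpf was at 31260 and 23070 CPM there. The part of such library differences in the results was not tested. The macrophage gene Lyz2 was at 705 CPM in the triceps of sham mouse 5 and at 7.88 to 33.3 CPM in the others. The hind-limb gene Tbx4 was low in both muscles (1.10 to 5.51 CPM) and did not separate them. Deviations from the group mean were shared between both muscles of a mouse (r above 0.1) in 6 of 8 mice. The exceptions were sham mouse 1 (r = 0.01) and sham mouse 4 (r = -0.64). Of the 6, sham mouse 5 (own r 0.52, 0.75 with mouse 4) and T3 mouse 10 (own r 0.14, 0.24 with mouse 8) correlated better with another mouse. The replicate numbers in the titles swap T3 mice 8 and 10 between the muscles, so the block by mouse is uncertain.

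The genes whose change differed between the muscles included 3 regulators of mitochondrial genes (Ppargc1a, Perm1 and Ppara), the fuel enzymes Bdh1, Ldhb, Idh2, Lpl and Acss1, and genes of slow and oxidative fibres (Myh2, Myoz2 and Casq2), all lower. In the fit with the mouse as a block (limma, two-sided, adjusted over all genes by Benjamini and Hochberg, threshold 0.05), 31 genes (0.276% of those tested) were lower and 1 (0.00889%) was higher. At an unadjusted p under 0.05 there were 663 lower (5.89%) and 340 higher (3.02%), and the median over all genes was -0.02. For all 31 lower genes, the gastrocnemius-minus-triceps difference of each T3 mouse lay below that of each sham mouse. Of all genes 4.9% showed this separation and 2.42% showed it the other way, as Gpx3 did. The 31 were chosen by a test on these same differences, so their separation is no added support. Median centring of each library gave 73 lower and 6 higher genes, and leaving out sham mouse 4 gave 63 and 9. Leaving out T3 mouse 8 left 5 genes in all, sham mouse 2 left 8, sham mouse 5 left 9 and T3 mouse 10 left 11. Sham mouse 1 left 16 and T3 mouse 7 left 17. With the library median as a covariate 498 were lower and 308 higher. Without the block 19 genes passed, all lower, 16 of them among the 32. The other 16 missed the threshold then: Ppargc1a and Gpx3 (limma adjusted p = 0.055 each), Grb14 (0.064), Idh2, Casq2, Mvd and Gbp10 (0.066 each), Acss1 (0.067), Zdhhc23 (0.077), Nqo2 (0.097), Myh2 (0.12), Lmcd1 (0.13), Ppara (0.14), Perm1 (0.16), Lynx1 (0.17) and Rbm38 (0.38).

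**Figure D1:**
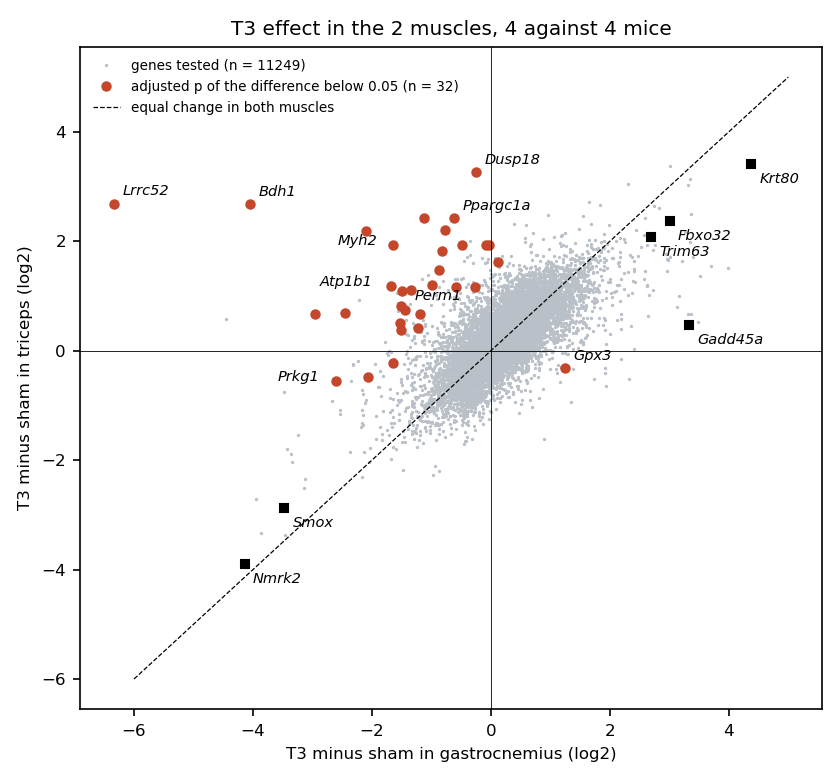
Change after T3 transection in the gastrocnemius (horizontal axis, log2) against the triceps (vertical axis, log2) for the 11249 genes tested, 4 T3 against 4 sham mice. Red points are the 32 genes whose change differed between muscles, mostly to the upper left of the line of equal change, and black squares are named genes whose difference did not pass.

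Most of the 31 lower genes had estimates of opposite sign in the 2 muscles. The gastrocnemius change was below 0 for 30 of them and the triceps change above 0 for 28, with 27 showing both signs. By the tests within a muscle, 23 had fallen in the gastrocnemius, where 474 genes (4.21%) fell and 1883 (16.7%) rose, and 13 had risen in the triceps, where 362 (3.22%) rose and 66 (0.587%) fell. Both tests were passed by 6 genes: Lrrc52, Bdh1, Atp1b1, Snai3, Apol6 and the long noncoding RNA Gm5532. In sham mice 7 of the 31 were higher in the gastrocnemius and 0 lower, against 14.8% and 6.69% of all genes. After T3 all 31 were lower there than in the triceps, against 6.41% of all genes. The values behind these counts are those by which the 31 were chosen. The median change over all genes was 0.27 in the gastrocnemius and 0.32 in the triceps. With libraries centred on their median the counts within a muscle became 1002 higher and 914 lower, and 132 higher and 91 lower.

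A second set of triceps libraries, 2 sham and 2 T3 with the number 57 in their descriptions, did not enter the fit. Of the 28 genes with a triceps change above 0, 25 had a higher T3 than sham mean in that set, as had 64.7% of the 7970 genes with a positive triceps change. In 23 of the 28, both T3 libraries lay above both sham libraries, against 43.7% of those 7970 genes. The 3 genes whose mean was not higher there were Myh2, Lynx1 and the noncoding RNA AC122252.2.

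Regulators of mitochondrial genes were among the genes that differed. Ppargc1a (chromosome 5, 51454250 to 51567726, GRCm38, minus strand), which encodes PGC-1α, stood at 62.7, 49.4, 29.1 and 21.1 CPM in the gastrocnemius of sham mice 1, 2, 4 and 5. After T3 it was at 31.0, 34.2, 18.4 and 17.6 CPM there in mice 6, 7, 8 and 10. In the triceps of the same mice it was at 50.5, 35.6, 16.8 and 22.8 CPM in sham and 170, 287, 154 and 76.6 CPM after T3. Every T3 triceps library exceeded every other library, while the gastrocnemius groups overlapped. The triceps rose by 2.43 ± 0.42 (log2, SE, limma adjusted p = 0.020), the gastrocnemius changed by -0.62 ± 0.35 (adjusted p = 0.22), and the difference was -3.04 ± 0.28 (limma adjusted p = 0.0025). It passed in 23 of 24 settings tried, all but the fit without the block. Of the 24, the setting without a filter repeats the main fit.

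Perm1 (chromosome 4, 156215868 to 156221307, plus strand) encodes a muscle protein that acts with PGC-1 and the oestrogen-related receptors on oxidative genes. By the tests within a muscle it passed in the gastrocnemius only, and its sham and T3 values overlapped in both muscles. In the gastrocnemius it was at 235, 310, 227 and 120 CPM in sham and 84.8, 170, 47.7 and 45.0 CPM after T3, a fall of 1.5 ± 0.42 on the log2 scale (limma adjusted p = 0.030). In the triceps it was at 191, 235, 70.1 and 65.9 CPM in sham and 227, 350, 252 and 209 CPM after T3 (1.08 ± 0.41, adjusted p = 0.12). The sham triceps values of mice 4 and 5, the libraries with the lowest medians, were about as low as gastrocnemius values after T3. The difference was -2.59 ± 0.38 (adjusted p = 0.030), and -2.12 without those 2 mice (adjusted p = 0.075). It also missed the threshold without sham mouse 2 (limma adjusted p = 0.080), sham mouse 5 (0.13), T3 mouse 8 (0.12) or T3 mouse 10 (0.077). Ppara, the nuclear receptor that drives fatty acid oxidation genes, rose in the triceps from 4.78 ± 3.10 to 16 ± 4.39 CPM (SD, n = 4, limma adjusted p = 0.045) and was at 7.47 ± 2.37 and 5.29 ± 1.81 CPM in the gastrocnemius. Its difference was -2.41 ± 0.39 (limma adjusted p = 0.043), lost when any mouse but sham mouse 4 was left out (adjusted p 0.062 to 0.18).

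Promoters of such genes are shown because they are the regulatory sequence next to genes whose change differed between the muscles, with known short motifs of factors that act with PGC-1α or in muscle. The sequences are from RefSeq's genes on GRCm38.p6, upstream of the annotated start and trimmed where a GENCODE M21 transcript begins, 5′ to 3′ on the gene's strand. Capitals mark the core TGACGT of the cAMP response element (here as its reverse complement) in Ppargc1a, chr5:51567727-51567975, minus strand. In Perm1, chr4:156215677-156215867, plus strand, they mark the nuclear receptor half-site AAGGTCA, also reverse-complemented. In Ldhb, the heart-type lactate dehydrogenase gene, chr6:142507958-142508207, minus strand, they mark 2 matches to CTA and TAG with 4 bases between them, a loose form of the MEF2 site.
Ppargc1a: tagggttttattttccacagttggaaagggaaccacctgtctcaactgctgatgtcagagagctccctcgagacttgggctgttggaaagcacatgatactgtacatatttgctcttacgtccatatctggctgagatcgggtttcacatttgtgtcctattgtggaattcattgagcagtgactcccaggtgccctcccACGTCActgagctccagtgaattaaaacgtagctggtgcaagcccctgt
Perm1: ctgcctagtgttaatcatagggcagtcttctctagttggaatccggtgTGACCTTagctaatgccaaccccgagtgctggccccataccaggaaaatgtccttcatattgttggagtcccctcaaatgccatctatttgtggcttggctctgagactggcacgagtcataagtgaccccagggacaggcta
Ldhb: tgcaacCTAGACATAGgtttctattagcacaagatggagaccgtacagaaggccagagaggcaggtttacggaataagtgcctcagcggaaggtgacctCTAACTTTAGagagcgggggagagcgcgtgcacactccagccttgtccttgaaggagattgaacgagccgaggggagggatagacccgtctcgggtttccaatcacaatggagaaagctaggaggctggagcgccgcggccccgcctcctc

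Among promoters of 250 bases with an entry, both strands searched, AAGGTCA was in 1 of 25 genes that differed and in 3.46% of 8375 genes tested. TGACGT was in 2 of 25 (Lmcd1 and Ppargc1a) against 12.3%, and its full palindrome TGACGTCA, which contains it, in 1 (Lmcd1) against 3.18%. The loose MEF2 form was in 2 (Ldhb and Myoz2) against 3.58%, and the E-box CAGCTG in 2 (Lmcd1 and Myoz2) against 14.5%. These counts describe letters in these windows only, and gene-level reads do not tell which promoter of a gene was used.

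Of 22 mitochondrial gene regulators on a list of this pathway, 3 were lower and 0 higher in the comparison. The 3 are those above. At an unadjusted p under 0.05, 11 were lower, and the median of the 22 was -0.50. Of all genes, 0.276% were lower, 5.89% were lower at an unadjusted p under 0.05, and the median was -0.02. This list and those below were chosen with earlier results of these data known. Esrra, the oestrogen-related receptor alpha, had a difference of -1.08 ± 0.28 (adjusted p = 0.18) and Ppargc1b, a close relative of Ppargc1a, -1.47 ± 0.35 (adjusted p = 0.15). Esrrg, another receptor of that family, rose in the triceps (1.69 ± 0.30, adjusted p = 0.022), with a difference of -1.63 ± 0.53 (limma adjusted p = 0.32). Ppargc1b fell in the gastrocnemius (1.63 ± 0.34 on the log2 scale, limma adjusted p = 0.0097) and was at -0.16 ± 0.34 in the triceps.

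Several enzymes of fuel use were among the genes that passed. Bdh1 (chromosome 16, 31422280 to 31458901, plus strand), the mitochondrial enzyme that oxidises the ketone body β-hydroxybutyrate, was at 34.8, 44.2, 46.7 and 21.6 CPM in the sham gastrocnemius and 4.76, 1.29, 2.13 and 1.48 CPM after T3. The triceps values were 17.5, 19.7, 9.77 and 3.91 CPM in sham and 60.41, 51.3, 119 and 61.2 CPM after T3. The groups did not overlap in either muscle, and they moved in opposite directions. The gastrocnemius fell by 4.05 ± 0.40 and the triceps rose by 2.68 ± 0.47 on the log2 scale, a difference of -6.73 ± 0.49 (limma adjusted p = 0.00041). Bdh1 passed in all 24 settings tried, from -7.19 to -6.07.

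Lpl (chromosome 8, 68880491 to 68907448, plus strand), the lipase that frees fatty acids from circulating triglyceride, was at 691, 448, 707 and 661 CPM in the sham gastrocnemius and 321, 294, 250 and 227 CPM after T3. In the triceps it was at 1013, 577, 805 and 733 CPM in sham and 1074, 1454, 1103 and 1296 CPM after T3. No group pair within a muscle overlapped. Its difference was -1.86 ± 0.21 (limma adjusted p = 0.0080), with a gastrocnemius fall of 1.19 ± 0.19 (adjusted p = 0.0028) and a triceps change of 0.67 ± 0.22 (adjusted p = 0.097). Without T3 mouse 8 its adjusted p was 0.061. Lpl also counts as an adipocyte marker. The summed level of the 9 adipocyte markers in the table was 2706 to 3486 CPM in the sham gastrocnemius, 1615 to 3118 after T3, 2545 to 2860 in the sham triceps and 2258 to 2710 after T3. Adipoq, the fat cell hormone adiponectin, was at 9.04 to 20.9 CPM in the sham gastrocnemius, 7.0 to 18.5 after T3, 5.79 to 12.9 in the sham triceps and 4.32 to 12.1 after T3. The part of fat cells in the Lpl result was not tested. In bulk samples, fewer cells of a type and less RNA per cell cannot be told apart.

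Ldhb, the lactate dehydrogenase subunit of oxidative fibres, fell in the gastrocnemius (1.35 ± 0.22 on the log2 scale, limma adjusted p = 0.0026) and was at 1.10 ± 0.28 in the triceps (adjusted p = 0.053). Its difference was -2.45 ± 0.33 (limma adjusted p = 0.017), kept in 5 of 8 analyses that left out a mouse. Idh2, the mitochondrial isocitrate dehydrogenase that yields NADPH, was at 245 ± 61.3 and 164 ± 43.7 CPM in the gastrocnemius in sham and after T3 and rose in the triceps from 154 ± 53 to 334 ± 59.4 CPM (SD, n = 4, limma adjusted p = 0.038). Its difference was -1.75 ± 0.26 (limma adjusted p = 0.030), kept in 3 of 8 analyses that left out a mouse. Acss1, which makes acetyl-CoA from acetate in mitochondria, rose in the triceps by 1.94 ± 0.31 (adjusted p = 0.015), with -0.03 ± 0.25 in the gastrocnemius. Its difference was -1.96 ± 0.31 (limma adjusted p = 0.042), kept in 1 of 8 analyses that left out a mouse, the one without sham mouse 4. Mvd, a sterol synthesis enzyme, had the same form (1.94 ± 0.34 in the triceps, -0.08 ± 0.23 in the gastrocnemius). Its difference of -2.02 ± 0.33 (limma adjusted p = 0.043) was kept in 2 of 8.

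For the lists that follow, the shares over all genes were 0.276% lower and 5.89% lower at an unadjusted p under 0.05, with a median of -0.02. Of 21 genes of the TCA cycle and pyruvate entry, 1 was lower (Idh2) and 11 were lower at an unadjusted p under 0.05, with a median of -0.60. The cytosolic malate dehydrogenase Mdh1 was just outside, at -1.83 ± 0.32 (limma adjusted p = 0.051). Of 31 genes of fatty acid uptake and oxidation, 1 was lower (Lpl) and 13 were lower and 1 higher at an unadjusted p under 0.05, with a median of -0.41. The heart-type fatty acid binding protein Fabp3 rose in the triceps (1.75 ± 0.38, limma adjusted p = 0.040), where its libraries reached 876 to 3490 CPM against 407 to 772 CPM in sham. Its difference was -2.11 ± 0.48 (limma adjusted p = 0.12). Of 19 genes of ketone body and branched-chain amino acid use, 1 was lower (Bdh1), and 6 were at an unadjusted p under 0.05, with a median of -0.31. Oxct1, the enzyme that activates ketone bodies downstream of Bdh1, was at -1.19 ± 0.24 (limma adjusted p = 0.079). Ppm1k, the phosphatase that switches on branched-chain amino acid breakdown, was at -1.48 ± 0.26 (limma adjusted p = 0.053).

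**Figure D2:**
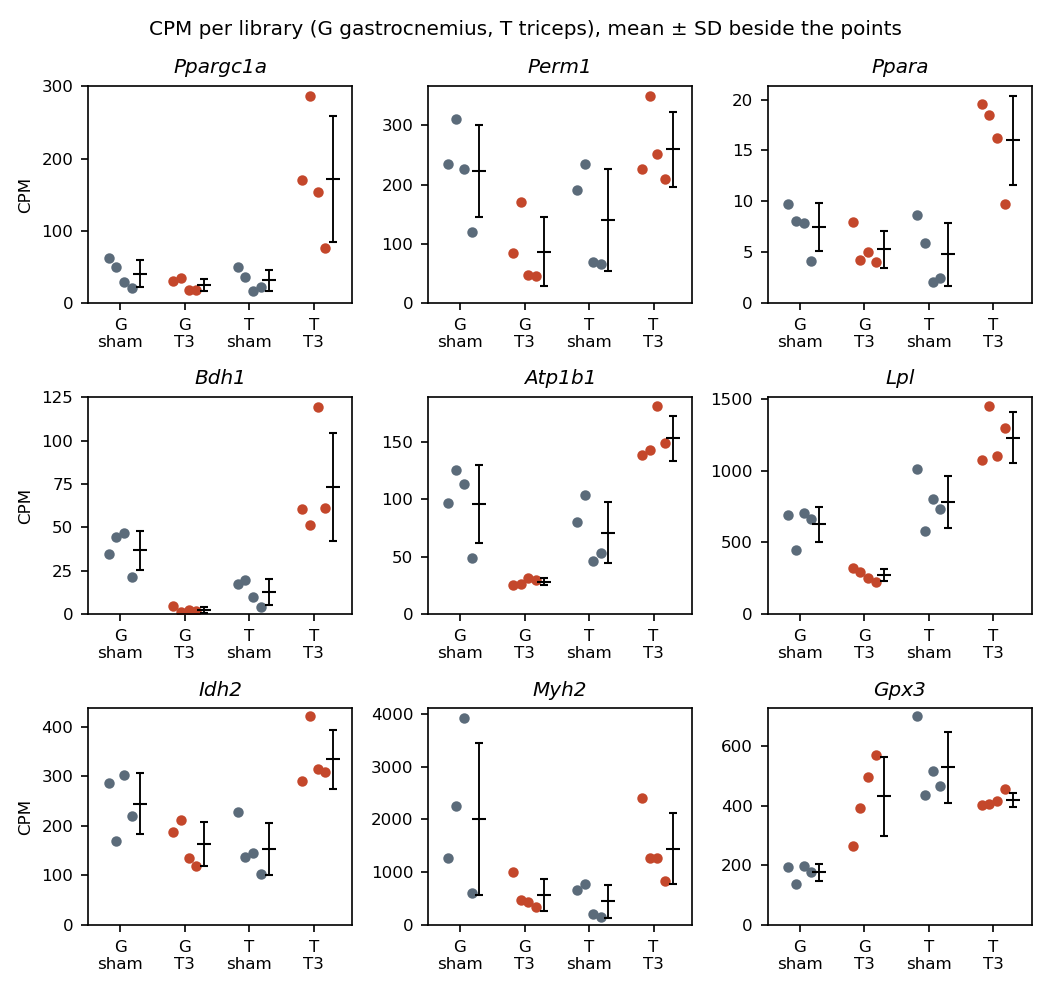
CPM of 9 genes in each of the 16 libraries (vertical axis, linear from 0), by muscle and group, with grey points for sham, red for T3 and a bar for the mean ± SD beside them. The first 8 genes have a higher mean in the T3 triceps than in the T3 gastrocnemius. Gpx3, whose difference in T3 effect has the opposite sign, has similar means there (418 and 431 CPM).

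Genes of the respiratory chain, which the fuels above feed with electrons, did not pass one by one. Of 48 nuclear-encoded subunits none passed for the difference, with 10 lower at an unadjusted p under 0.05 (44 of 48 below 0, median -0.31). In the gastrocnemius 10 of them fell (median -0.68), and in the triceps 0 passed (median -0.36). Of all genes, 4.21% fell in the gastrocnemius and 0.587% in the triceps. The 15 mitochondrially encoded genes had a median of -0.50, with 0 passing and 5 lower at an unadjusted p under 0.05. Their share of reads was 9.54% to 13.1% in the sham gastrocnemius and 7.48% to 8.06% after T3, without overlap, and 11.7% to 16.8% and 11.9% to 16.6% in the triceps. Sdhd, a membrane anchor of complex II, had the largest difference among the nuclear-encoded subunits, at -0.96 ± 0.24 (limma adjusted p = 0.17). Glycolysis and glycogen genes, 26 in all, had 1 lower (Ldhb), 7 lower at an unadjusted p under 0.05 and a median of -0.37.

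A few genes of the sarcomere and the membrane passed as well. Myh2, the fast-oxidative (type IIa) myosin heavy chain, was at 1264, 2256, 3918 and 608 CPM in the sham gastrocnemius and 1006, 479, 437 and 342 CPM after T3. The triceps values were 655, 781, 202 and 149 CPM in sham and 2398, 1267, 1267 and 834 CPM after T3. The triceps groups did not overlap and the gastrocnemius groups did, although the gastrocnemius fall passed (1.64 ± 0.52 on the log2 scale, limma adjusted p = 0.046) and the triceps change of 1.93 ± 0.53 did not (adjusted p = 0.065). Its difference was -3.57 ± 0.58 (limma adjusted p = 0.043), kept in 2 of 8 analyses that left out a mouse (adjusted p up to 0.18). In the second set of triceps libraries it was not higher after T3 (3096 and 3284 CPM in sham, 2147 and 2675 CPM in T3). The antisense gene 9430073C21Rik overlaps Myh2 on the other strand and stood at -5.02 ± 0.92 (limma adjusted p = 0.058). Because no label gives the strand setting of the read counting, reads of the pair cannot be told apart. Myh1 and Myh4, the neighbouring fast myosins, differed by -0.23 (95% interval -1.35 to 0.90) and -0.26 (-1.40 to 0.87), and slow Myh7 by -0.10 (-2.68 to 2.47).

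Myoz2, the slow-fibre calsarcin of the Z-disc, fell in the gastrocnemius (1.51 ± 0.31, limma adjusted p = 0.0086) with 4 T3 values of 51.8 to 61.7 CPM below sham values of 79.7 to 272 CPM. In the triceps it was at 91.1 to 172 CPM in sham and 197 to 365 CPM after T3. Its difference was -2.33 ± 0.30 (limma adjusted p = 0.017). Casq2, the calcium-binding protein of the slow-fibre reticulum, fell in the gastrocnemius (1.52 ± 0.27, adjusted p = 0.0042), with a triceps change of 0.50 ± 0.29 and a difference of -2.02 ± 0.31 (limma adjusted p = 0.036), kept in 2 of 8 analyses that left out a mouse (adjusted p up to 0.12). Of 16 measured slow-fibre genes these 2 were lower, with 4 lower and 1 higher at an unadjusted p under 0.05 (median -0.37), and of 20 fast-fibre genes 1 was lower (Myh2), with 2 lower and 1 higher at an unadjusted p under 0.05 (median -0.16). The slow regulatory light chain Myl2 fell in the gastrocnemius (2.31 ± 0.43, limma adjusted p = 0.0055), with a difference of -2.07 ± 0.39 (adjusted p = 0.061).

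Atp1b1 (chromosome 1, 164437109 to 164458355, minus strand), the β1 subunit of the sodium pump that restores the membrane potential of working fibres, was at 96.4, 126, 114 and 48.4 CPM in the sham gastrocnemius and 25.3, 25.8, 31.8 and 29.7 CPM after T3. The triceps values were 80.3, 104, 46.1 and 53 CPM in sham and 139, 142, 181 and 149 CPM after T3. Both muscles separated without overlap, in opposite directions. The gastrocnemius-minus-triceps values of the T3 mice were -2.51 to -2.33 on the log2 scale, against -0.13 to 1.30 in sham mice. The difference was -2.87 ± 0.28 (limma adjusted p = 0.0033). It was 1 of the 4 genes that passed in every setting they were tested in, with Bdh1, Lrrc52 and AC122252.2. Of 24 genes of excitation-contraction coupling and channels it alone was lower, with 5 at an unadjusted p under 0.05 and a median of -0.37.

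The gene with the largest difference was Lrrc52 (chromosome 1, 167445669 to 167466780, minus strand), an accessory subunit of a large-conductance potassium channel. It had no read in the 4 gastrocnemius libraries after T3 and 199 reads in sham (4.15, 2.07, 2.15 and 1.65 CPM). In the triceps it had 49 reads in sham (1.69, 0.53, 0.43 and 0.30 CPM) and 344 after T3 (2.86, 2.68, 6.79 and 4.83 CPM). With a floor of 3 reads over the group, the sham gastrocnemius was at least 57.9-fold higher than the T3 gastrocnemius, and the T3 triceps at least 104-fold higher. The fitted value of -9.02 depends on the offset of 0.5 reads and is no bound. On log2(CPM + 1) it was -3.36, and the bound from the floor is -8.40. The floor covers counting error only, since reads are not independent molecules.

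The other lower genes belong to signalling, lipid and RNA roles. Dusp18, a dual-specificity phosphatase, rose in the triceps from 3.05 to 11 CPM in sham to 44.3 to 78.8 CPM after T3 (3.26 ± 0.39, limma adjusted p = 0.0049), the largest triceps change among the 32. Its gastrocnemius change was -0.24 ± 0.41 (difference -3.51 ± 0.46, limma adjusted p = 0.017). Snai3, a repressor of the Snail family, rose in the triceps (2.21 ± 0.29, limma adjusted p = 0.0064) and fell in the gastrocnemius (0.78 ± 0.22, adjusted p = 0.034). Pla2g12a, a secreted phospholipase A2, rose in the triceps (1.62 ± 0.21, adjusted p = 0.0056) with 0.12 ± 0.21 in the gastrocnemius. Those 3 rises were also in the second set of triceps libraries, at log2 3.17, 2.35 and 2.01 from 2 libraries a group.

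Other genes fell in the gastrocnemius and did not pass in the triceps. Prkg1, the kinase activated by cGMP, fell there by 2.60 ± 0.21 (limma adjusted p = 0.00011) from 24.7 to 40.9 CPM in sham to 4.34 to 6.02 CPM after T3, with -0.55 ± 0.27 in the triceps. Grb14, an adaptor that restrains the insulin receptor, fell by 2.06 ± 0.23 (adjusted p = 0.00043), with -0.48 ± 0.24 in the triceps. Nqo2, a quinone reductase, fell by 1.64 ± 0.22 (adjusted p = 0.0010), with -0.23 ± 0.24. Lynx1, which modulates nicotinic acetylcholine receptors, fell by 1.51 ± 0.22 (adjusted p = 0.0018), with 0.38 ± 0.38. Tmem65, a membrane protein of heart and muscle, fell by 1.23 ± 0.15 (adjusted p = 0.00073), with 0.42 ± 0.19. In the second set of triceps libraries both T3 libraries lay below both sham libraries for Grb14, Nqo2 and Prkg1 (-1.38, -1.08 and -0.36 on the log2 scale) and above them for Tmem65 (0.67), and they overlapped for Lynx1 (-0.10). Grb14, Nqo2 and Prkg1 each passed in 2 of 8 analyses that left out a mouse, Lynx1 in 1 and Tmem65 in 3.

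The remaining lower genes were Gbp10, Apol6, Zdhhc23, Abhd18, Lmcd1, Rbm38 and 3 long noncoding RNAs, AC122252.2, Gm5532 and 2310016D03Rik, with differences of -4.29 to -1.43. Of 8 analyses that left out a mouse, AC122252.2 passed in 8, Apol6 in 5, 2310016D03Rik in 4, Gbp10, Lmcd1, Abhd18 and Gm5532 in 2, and Zdhhc23 and Rbm38 in 1. Some of them carry limits of annotation. Apol6 overlaps the myoglobin gene Mb on the other strand, and Mb, at a mean log2 level of 9.96 to 11.45, differed by -0.64 ± 0.33 (limma adjusted p = 0.65). Gbp10 belongs to a family of near-identical guanylate-binding genes whose reads counting could split. AC122252.2 lies 2390 bases from Dusp1 on the same strand, and Dusp1, a phosphatase induced by stress, fell in the gastrocnemius (1.36 ± 0.19, limma adjusted p = 0.0012) with a difference of -1.44 ± 0.34 (adjusted p = 0.14).

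**Figure D3:**
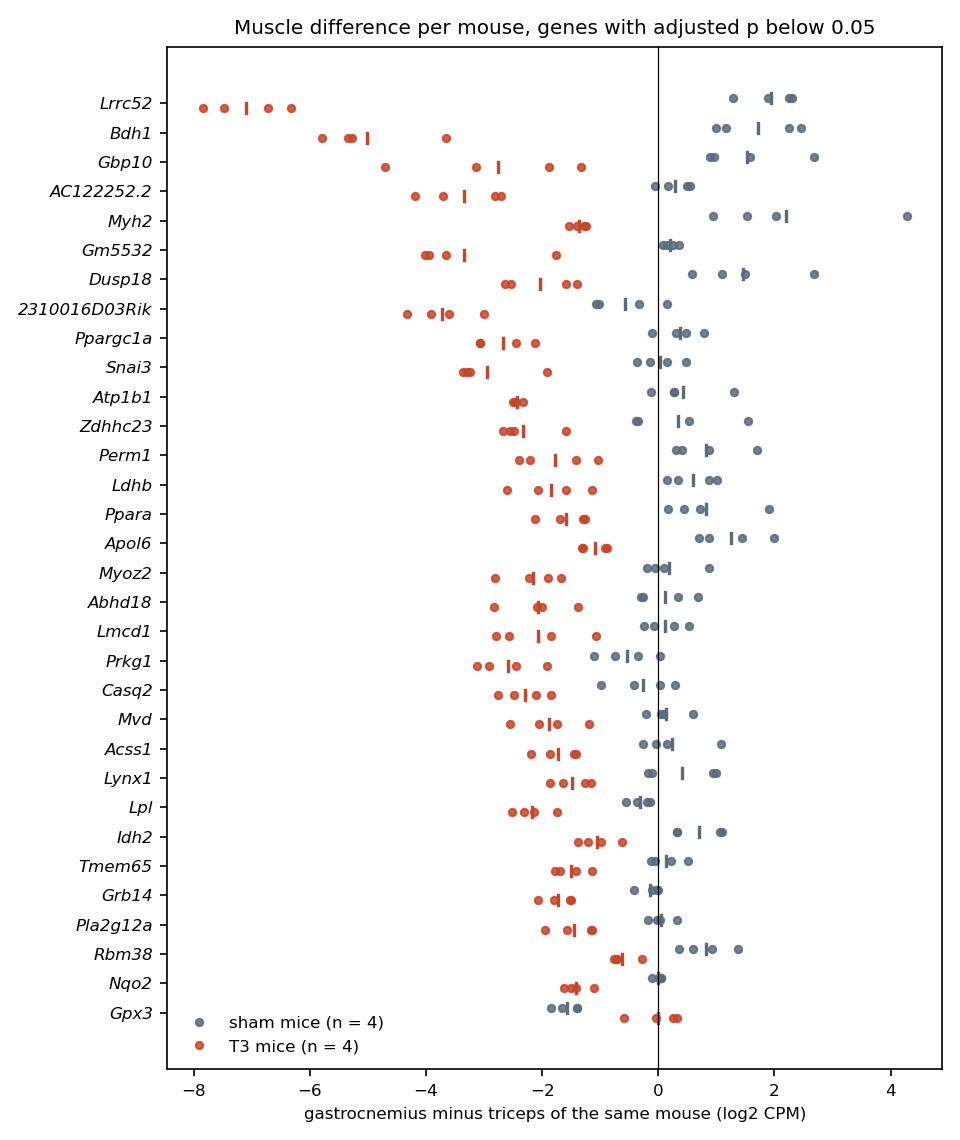
Gastrocnemius minus triceps within each mouse (horizontal axis, log2 CPM) for the 32 genes that passed, ordered by their difference, with grey points for the 4 sham mice, red for the 4 T3 mice and short lines at the means. Red and grey points do not overlap in any of the 32, which were chosen by a test on these same values. Gpx3 at the bottom is the gene with the opposite order.

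Gpx3, the secreted glutathione peroxidase, was the single gene higher in the comparison. In the gastrocnemius it was at 194, 138, 197 and 176 CPM in sham and 266, 392, 495 and 570 CPM after T3, a rise of 1.25 ± 0.24 (limma adjusted p = 0.0063). In the triceps it was at 698, 434, 517 and 465 CPM in sham and 401, 404, 414 and 455 CPM after T3 (-0.31 ± 0.20, adjusted p = 0.28). The gastrocnemius-minus-triceps values were -1.85 to -1.39 on the log2 scale in sham mice and -0.60 to 0.33 in T3 mice, without overlap. The difference was 1.56 ± 0.24 (limma adjusted p = 0.032), and it passed in 2 of 8 analyses that left out a mouse (adjusted p up to 0.16). Of 21 antioxidant genes it alone passed, with 5 higher and 1 lower at an unadjusted p under 0.05 and a median of 0.40.

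The best known ubiquitin ligases of muscle wasting rose in both muscles, and their difference did not pass the test. Fbxo32, the ubiquitin ligase atrogin-1, rose from 232 ± 81.8 to 1807 ± 452 CPM in the gastrocnemius and from 156 ± 64.8 to 953 ± 639 CPM in the triceps (SD, n = 4, limma adjusted p = 0.00022 and 0.044). Its difference was 0.64 with a 95% interval of -0.43 to 1.70. Trim63, the ligase MuRF1, rose by 2.70 ± 0.27 and 2.07 ± 0.44, with a difference of 0.63 (interval -0.00 to 1.26), and every T3 mouse lay above every sham mouse in its muscle difference. Of 28 ubiquitin ligases and atrogenes none passed for the difference (median -0.04, with 12 higher in the gastrocnemius and 2 in the triceps). Of 32 proteasome subunits none passed, with 31 above 0 and a median of 0.31, while 24 rose in the gastrocnemius and 13 in the triceps. Of all genes, 16.7% rose in the gastrocnemius and 3.22% in the triceps.

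Several genes that respond to glucocorticoids or metal stress also passed in both muscles. Cebpb, a transcription factor induced by glucocorticoids, rose by 1.85 ± 0.20 and 1.80 ± 0.24 (limma adjusted p = 0.00039 and 0.0072), a difference of 0.05 (95% interval -0.62 to 0.72). The metallothionein gene Mt1 rose by 1.94 ± 0.23 and 1.66 ± 0.27 (adjusted p = 0.00063 and 0.015), a difference of 0.27 (-0.45 to 0.99). Fkbp5, a chaperone of the glucocorticoid receptor, rose by 1.5 ± 0.34 and 1.62 ± 0.34 (adjusted p = 0.014 and 0.037), a difference of -0.12 (-0.77 to 0.53). The growth factor gene Igf1 fell by 1.68 ± 0.32 and 1.97 ± 0.33 (adjusted p = 0.0060 and 0.019), a difference of 0.29 (-0.51 to 1.08). Smox, spermine oxidase, and Nmrk2, a kinase of NAD synthesis, fell in both muscles as well, by 3.47 and 2.88 and by 4.14 and 3.90. Of 32 glucocorticoid-induced genes 17 rose in the gastrocnemius and 5 in the triceps, against 16.7% and 3.22% of all genes. None passed for the difference (median 0.25, with 7 higher and 2 lower at an unadjusted p under 0.05).

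Across all genes, 271 rose in both muscles, which is 74.9% of those that rose in the triceps and 14.4% of those that rose in the gastrocnemius. In the same way 47 fell in both (71.2% and 9.92%). None of either set passed for the difference, where 0.284% of all genes did. With so low a share, this does not show that the changes were equal in both muscles. In addition 7 genes fell in the gastrocnemius and rose in the triceps, and 0 did the reverse. The shares depend on how many genes each muscle had called, and triceps counts ran from 31 to 2943 when 1 library was left out.

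**Figure D4:**
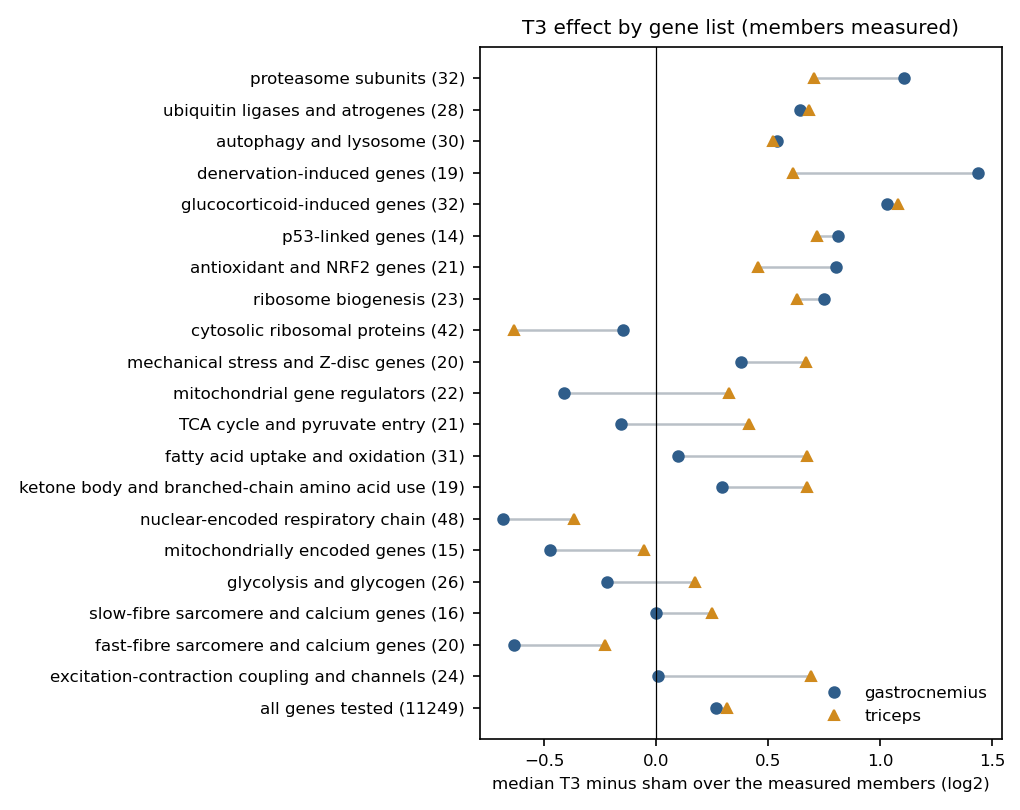
Median change after T3 transection (horizontal axis, log2) over the measured members of 20 gene lists and over all genes, in the gastrocnemius (blue circles) and the triceps (orange triangles), with the number of members in brackets. Mitochondrial regulators, TCA cycle genes, and glycolysis and glycogen genes have their triceps median above 0 and their gastrocnemius median below it.

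Of 19 measured genes known to rise with loss of nerve activity, 11 rose in the gastrocnemius and 2 in the triceps. Of all genes, 16.7% and 3.22% rose there, so fewer rises in the triceps are not particular to this list. Among the T3 mice, 1 went its own way. Gadd45a, a stress protein that rises in denervated muscle, was at 22.8 to 26 CPM in the sham gastrocnemius and at 172, 291, 234 and 307 CPM after T3 (3.33 ± 0.20, limma adjusted p = 4.8e-05). The triceps values were 18.6 to 37.5 CPM in sham and at 171 CPM in T3 mouse 6 against 24.9, 18.1 and 18.1 CPM in mice 7, 8 and 10. Mouse 6 thus had the same level in both muscles. The difference was 2.86 ± 0.76 (limma adjusted p = 0.20) with mouse 6 and 3.80 (adjusted p = 0.00065) without it.

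The triceps of mouse 6 stood apart for other genes of this kind. Its level of Cdkn1a, an inhibitor of cell division, was 113 CPM against 35.7 to 52.6 CPM in the other T3 triceps, that of Arrdc3, an arrestin-like gene, 219 against 30.4 to 63.9 CPM, and that of Hdac4, a deacetylase of denervated muscle, 79.2 against 11 to 21.6 CPM. Without mouse 6, Cdkn1a (3.14, limma adjusted p = 0.020), Arrdc3 (2.14, adjusted p = 0.027) and the activin antagonist Fst (2.62, adjusted p = 0.044) also passed, and 8 genes in all were higher and 25 lower. With it, Cdkn1a was at 2.47 ± 0.63 (adjusted p = 0.17), Arrdc3 at 1.69 ± 0.43 (adjusted p = 0.17) and Fst at 2.32 ± 0.42 (adjusted p = 0.057). In the second set of triceps libraries both T3 values of Cdkn1a (172 and 101 CPM) lay above both sham values (35.0 and 32.3 CPM), and those of Gadd45a overlapped (11.2 and 39.1 against 12.9 and 17 CPM). Whether the triceps of mouse 6 differed by surgery, handling or biology was not tested.

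Of 19 measured denervation-induced genes none passed, with 7 higher and 1 lower at an unadjusted p under 0.05 and a median of 1.03. Myog, a myogenic factor, was at 3.68 to 5.52 CPM in the sham gastrocnemius and 9.19, 70.9, 52.0 and 61.2 CPM after T3, the lowest in mouse 6, and its difference was 2.33 ± 0.96 (limma adjusted p = 0.50). The acetylcholine receptor subunit Chrna1 rose in the gastrocnemius (2.19 ± 0.24, adjusted p = 0.00039), with 0.39 ± 0.60 in the triceps and a difference of 1.79 ± 0.78 (limma adjusted p = 0.54). In the triceps of sham mouse 5, the library with high Lyz2, Chrna1 was at 36.6 CPM and Myog at 27.5 CPM, against 4.46 to 10.1 and 2.93 to 3.31 CPM in the other sham triceps. The summed macrophage markers were at 1095 CPM in that library and 32.0 to 50.3 CPM in the other 3, and their part in these values was not tested.

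Markers of other cell types were looked at beside these results. Of 11 macrophage, 14 fibroblast, 15 endothelial, 9 pericyte and smooth muscle, 6 Schwann cell and 5 red blood cell genes measured, none passed for the difference, and of 9 adipocyte markers Lpl did. Of all genes 0.284% passed, so these counts do not show equal cell content. The median difference of the macrophage genes was 0.64 (9 above 0, 2 below), with the macrophage-rich triceps of sham mouse 5 included. It was 0.01 for fibroblast, -0.11 for endothelial and -0.12 for pericyte and smooth muscle genes. Summed endothelial markers were at 161 to 492 CPM in the sham gastrocnemius and 414 to 488 after T3, and at 101 to 242 and 133 to 326 CPM in the triceps. Summed fibroblast markers were at 532 to 840 and 887 to 1146 CPM in the gastrocnemius, without overlap, and at 519 to 878 and 634 to 1095 CPM in the triceps. Summed pericyte and smooth muscle markers did not overlap in either muscle, at 3919 to 5416 CPM in sham and 6161 to 6582 after T3 in the gastrocnemius and 3768 to 4463 and 4466 to 6267 CPM in the triceps. No neutrophil and no T or NK cell marker is among the genes tested. The part of these cells in the results was not tested.

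The series also holds mice with a T9 transection, a cut at a lower thoracic level that also lies between the motor neurons of both muscles. The comparisons of T3 and of T9 with sham share the sham mice, so their values are given only side by side. The T9 values come from a fit of 24 libraries, the 16 above with those of the T9 mice. In that fit, 359 genes (3.19%) were lower and 423 (3.76%) higher in the T9 comparison against sham. The T3 comparison gave 124 lower and 16 higher in the same fit, so its 31 and 1 above are not on the same footing. The T9 values of the difference between muscles were -3.10 ± 0.26 for Ppargc1a, -6.33 ± 0.46 for Bdh1, -2.90 ± 0.26 for Atp1b1 and -1.78 ± 0.20 for Lpl, against T3 values of -3.04, -6.73, -2.87 and -1.86. For Perm1 they were -4.60 ± 0.39 and -2.59.

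Where sham cancels out, the muscle difference after T3 could be set against that after T9 directly. In that test 5 genes (0.0444%) passed, all higher after T3, with 812 at an unadjusted p under 0.05 (617 of them lower). None of the 32 genes above was among the 5, which so few passing genes made likely. Of the 31 lower genes, 7 were at an unadjusted p under 0.05 in that test, against 812 of all 11249. They went both ways, as with Perm1 (2.02 ± 0.39) and Dusp18 (-1.62 ± 0.41). The 31 were chosen on muscle differences after T3 that also enter this test, so that count is no added support. Without the block by mouse 0 passed (511 at an unadjusted p under 0.05), and leaving out 1 mouse gave 0 to 11. Fbp2, the muscle fructose bisphosphatase, had 1.79 ± 0.21 (limma adjusted p = 0.0073) and fell in both muscles after T3, by 1.38 ± 0.29 and 1.35 ± 0.21. Gadd45b, a relative of Gadd45a, had 2.07 ± 0.26 (adjusted p = 0.0096). Ntf5, the neurotrophin-4 gene, had 1.70 ± 0.26 (limma adjusted p = 0.040) and the predicted gene Gm49794 2.1 ± 0.32 (adjusted p = 0.040). For Fbp2 and Gadd45b the T3 difference between muscles was -0.03 and 0.28, and the T9 value -1.82 and -1.78.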

How the data were processed

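RNA of gastrocnemius and triceps was sequenced as paired reads, per the labels' protocols. HISAT2 2.1.0, featureCounts, Subread 1.5.1, limma and GRCm38 are named in the submitters' processing notes. No source used here gives the strand setting of the counting or the annotation release. The deposited table holds log2 CPM values, which the authors made by the voom step per the file's name. Each value came back as a whole number of reads (within 0.01) after removing an offset of 0.5 reads, which gave reads per gene and library.

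The log2 values were fitted with limma 3.58.1 in R 4.3.3, with empirical Bayes and a variance trend. The main comparison took the mouse as a block, with 6 residual degrees of freedom, and adjusted p-values over all 11249 genes by Benjamini and Hochberg. Changes within a muscle compared 4 T3 with 4 sham libraries. A filter on low values (log2 of at least 0 in 4 libraries) removed no gene. The test was checked on simulated data. Values after ± are SE for log2 changes and SD for CPM.

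Pairing was taken from the number in each description. The replicate numbers in the titles give T3 mice 8 and 10 the other way round in one muscle, and were tried as an alternative block. Samples with one number deviated together in 6 of 8 mice (mean r 0.276, against -0.0904 for other mice). Deviations from a group mean cancel over its mice, so the value for other mice follows largely from the own value. It is no separate check of the pairing.

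The members and gene lists were chosen with earlier results of these data known. Genes named are the 12 lowest and highest with an adjusted p under 0.05, the leading members by adjusted p of every list (4 at most), a panel and those of the T3 against T9 test, of which 1 is not reported here. The other genes that passed, and Mb, 9430073C21Rik and Adipoq, were named after their values were seen. Alternatives were scaling, filters, the offset, the block, variance settings, added libraries and leaving out each mouse.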

Additional observations from a re-analysis of the deposited data

Results flagged for a closer look

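For 32 genes the change after T3 transection differed between the muscles by the test of the difference itself (limma). The values, gastrocnemius minus triceps on the log2 scale, were Lrrc52 -9.02, Bdh1 -6.73, Gbp10 -4.29, AC122252.2 -3.63, Myh2 -3.57, Gm5532 -3.55, Dusp18 -3.51, 2310016D03Rik -3.15, Ppargc1a -3.04, Snai3 -2.99 and Atp1b1 -2.87 for the 11 lowest. For the others below 0 they were Zdhhc23 -2.66, Perm1 -2.59, Ldhb -2.45, Ppara -2.41, Apol6 -2.35, Myoz2 -2.33, Abhd18 -2.20, Lmcd1 -2.19, Prkg1 -2.05, Casq2 -2.02, Mvd -2.02, Acss1 -1.96, Lynx1 -1.89, Lpl -1.86, Idh2 -1.75, Tmem65 -1.64, Grb14 -1.58, Pla2g12a -1.50, Rbm38 -1.43 and Nqo2 -1.41. Gpx3 was at 1.56. The muscle difference after T3 minus that after T9 was 1.70 for Ntf5, 1.79 for Fbp2, 2.07 for Gadd45b and 2.097 for Gm49794, which passed that test.

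In 14 of 220 groups of 4 mice, 1 mouse lay far from the other 3 in its gastrocnemius-minus-triceps value (Dixon's test, which chance passes in about 1 of 20 groups). Among T3 mice, mouse 6 did so for Snai3 (-1.92), Gm5532 (-1.76), Arrdc3 (0.15), Cdkn1a (0.13), Gadd45a (0.0043) and Esrrb (-1.19). Mouse 10 did so for Zdhhc23 (-1.59) and Klf15 (0.46), and mouse 7 for Rbm38 (-0.28). Among sham mice, mouse 4 did so for Etfdh (0.91), Pdk4 (1.30) and Chrne (1.79), mouse 5 for Ctsl (-0.88) and mouse 2 for Tnni1 (-3.15).

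Of 48 groups of library measures, 4 held such a library. The triceps of T3 mouse 10 had a median log2 value of 3.71. The triceps of sham mouse 5 had 1095 CPM of summed macrophage markers. Summed Schwann cell markers were at 263 CPM in the gastrocnemius of sham mouse 4 and 44.8 CPM in the triceps of T3 mouse 6.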

How the results depend on the processing

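The 32 genes kept their sign in every setting they were tested in, and 4 of them passed in every one (AC122252.2, Atp1b1, Bdh1 and Lrrc52). The sign had little room to change. The setting without a filter repeated the main fit, and those that changed only the block or the variance model kept the log2 values. The number of genes that passed was 79 after median centring, 98 after quantile normalization, 19 without the replicate block, 79 with the animal as a random effect, 140 with the T9 mice added and 173 with all 20 sham and T3 libraries. It was 17 without a variance trend, 384 with library weights (150 higher, 234 lower), 806 with the library median as a covariate (308 higher, 498 lower) and 11 without sham mice 4 and 5. Leaving out 1 mouse gave 5 to 72. Taking the replicate number of the titles as the block gave 30. The cause of these shifts was not tested. For the gastrocnemius alone, 2357 genes passed, and 1070 to 3060 with 1 library left out. For the triceps alone, 428 passed, 223 after median centring, 270 after quantile normalization and 31 (without T3 mouse 7) to 2943 (without sham mouse 2) with 1 library left out. The muscle difference after T3 gave 1921 genes and 2939 after quantile normalization. For T3 against T9, 5 passed, 19 after centring, 24 after quantile normalization, 3 on log2(CPM + 1), 0 without the replicate block and 0 to 11 with 1 mouse left out. With 4 mice a group the median SE of the difference was 0.32. The difference closest to none among genes that passed was -1.41 (Nqo2, SE 0.21). Differences well above the median SE could therefore go undetected, and a gene that did not pass may still differ.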

Other observations

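Of 42 measured cytosolic ribosomal protein genes, all 42 had a difference above 0 (median 0.52, against -0.02 over all genes), with 0 passing and 2 at an unadjusted p under 0.05. Their median change was -0.15 in the gastrocnemius and -0.63 in the triceps. Of 23 ribosome biogenesis genes, 21 were above 0 (median 0.23). Of the 23, 15 rose in the gastrocnemius and 1 in the triceps, against 16.7% and 3.22% of all genes. Their median change was nevertheless similar in both muscles, 0.75 in the gastrocnemius and 0.63 in the triceps. Of 30 autophagy and lysosome genes none passed for the difference, and 6 were higher at an unadjusted p under 0.05 (median 0.13).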
